A study of Mus musculus with 6 samples.

Results

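The Cyp2b genes lie in a cluster on mouse chromosome 7 and encode cytochrome P450 enzymes of the liver and other tissues. All probes named for Cyp2b10, Cyp2b9, Cyp2b13, Cyp2b19, Cyp2b23 or NP065022 were taken, which gave 6 probes for 6 members, 1 each, of 55681 probes for 34781 gene names on the array. NP065022 is the array's name for a transcript beside Cyp2b10 whose record reads testosterone 16a-hydroxylase type c, and no current gene symbol was matched to it here. The question put to these probes was whether the paralogs moved together 2 h after CBZ, and whether their probes could be reading one another's RNA.

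Livers of inbred C57BL6/J mice were profiled whole on 1-colour Agilent arrays 2 h after an oral dose. The treated group was 3 mice given 250 mg/kg of a compound that the labels name only as CBZ, and the control group was 3 mice given dimethyl sulfoxide (DMSO), a solvent. Age and sex are not given in the labels, and each array held RNA of 1 mouse. In whole tissue, fewer cells of a type and less RNA per cell cannot be told apart.

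Cyp2b10 is the classical target of the constitutive androstane receptor CAR, encoded by Nr1i3. Phenobarbital-like compounds release this nuclear receptor from the cytoplasm of hepatocytes, and it then switches on drug-metabolising enzymes, partly overlapping with the pregnane X receptor PXR, encoded by Nr1i2. Cyp2b9 and Cyp2b13 are known in mouse liver for higher expression in females than in males, and Cyp2b19 is known as an enzyme of skin keratinocytes.

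Because paralogs can share sequence, the probes themselves are shown first. Each is 60 bases long and is given 5′ to 3′, as a whole probe or as a 30-base stretch, with capitals for the longest run it shared with any other probe of the array on either strand. Positions follow the array's own annotation, which is on mm9.
Cyp2b10, chr7:26711530-26711559, plus strand: agctctcCATGATCTGGGATCTgtgctaat
NP065022, chr7:26735373-26735432, plus strand: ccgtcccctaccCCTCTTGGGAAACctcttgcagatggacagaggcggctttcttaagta
Cyp2b13, chr7:26880921-26880950, plus strand: agactgtATGTTGCTGCTCACAtctttcct
Cyp2b9, chr7:26983484-26983543, plus strand: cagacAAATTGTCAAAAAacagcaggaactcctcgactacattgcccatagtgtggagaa
Cyp2b23, chr7:27450251-27450280, minus strand: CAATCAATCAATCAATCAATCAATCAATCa
Cyp2b19, chr7:27557545-27557574, plus strand: tgTTGAGACAGGATCTCACtatgtagacct

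No pair of member probes shared a run of 12 or more bases. The longest run that the Cyp2b10 probe shared with any probe of the array was 15 bases, with a probe for Hdac8 on the opposite strand. For the Cyp2b9 and NP065022 probes it was 13 bases, and for Cyp2b13 15 bases. The Cyp2b19 probe shared 17 bases with a probe for Paxip1 on the opposite strand. The Cyp2b23 probe stood apart, since 29 of its bases were a repeat that a probe for Rtl4 also carries on the same strand. These comparisons are between probes; how well each probe binds the transcripts of the other members was not tested. The probes also sit at different places along their targets, starting at base 1750 of the target for Cyp2b10, 717 for Cyp2b9, 1565 for Cyp2b13, 2590 for Cyp2b19, 2118 for Cyp2b23 and 101 for NP065022.

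The 6 arrays lay on 1 slide and shared a scan date. Of 59305 spots per array, 42.6 to 45.8% were well above background, none was saturated, and the arrays correlated at r = 0.988 to 0.993. Only probes detected well above background in all 3 mice of one group or the other were tested, 22352 in number. Levels below are processed intensities, and log2 levels are those intensities minus the array's 75th percentile, so that 0 is a probe at that percentile. Limma's moderated test with Benjamini-Hochberg adjustment called 14 of the 22352 probes at an adjusted p under 0.05, which is 0.0626%.

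Of the 6 members, 3 were tested, namely Cyp2b10, Cyp2b9 and NP065022, and all 3 were well above background on all 6 arrays. Each was higher in every CBZ mouse than in any DMSO mouse, and the group means of log2 levels differed by 3.35-fold to 7.44-fold. Yet none passed the adjusted threshold, with adjusted p-values of 0.065 to 0.066 by limma. By unadjusted limma p-values under 0.05 all 3 were higher in CBZ, against 5.01% of all probes tested. All 3 CBZ arrays lay above all 3 DMSO arrays for 6.25% of probes tested, and a level at least 2-fold higher was reached by 0.398%.

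Cyp2b10 showed the largest change of the 3. Its processed intensities were 14608, 4953 and 8987 with DMSO and 93772, 76945 and 38122 with CBZ. The groups did not overlap, and CBZ mouse 3 was the lowest of its group while DMSO mouse 1 was the highest of the controls. The mean log2 level was 5.63 ± 0.76 (SD, n = 3) with DMSO and 8.52 ± 0.76 (SD, n = 3) with CBZ. The log2 fold change was 2.89 ± 0.44 (SE), or 7.44-fold with a 95% interval of 3.72 to 14.9, with an adjusted p of 0.066 by limma. This was the 3rd largest increase of all probes tested, and the 39th smallest p. Measured against the DMSO mean, the 3 CBZ mice stood 10.3-fold, 9.85-fold and 4.04-fold higher.

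Cyp2b9, a paralog known for its female-predominant expression, was also higher in every CBZ mouse. Its intensities were 143, 85.8 and 75.2 with DMSO and 791, 575 and 326 with CBZ. The groups again did not overlap, with CBZ mouse 3 lowest in its group and DMSO mouse 1 highest in its own. The mean log2 level went from -0.85 ± 0.46 (SD, n = 3) to 1.58 ± 0.71 (SD, n = 3), a log2 fold change of 2.43 ± 0.35 (SE). On the linear scale this is 5.39-fold with a 95% interval of 3.09 to 9.39, at an adjusted p of 0.065 by limma, the 8th largest increase. Individual CBZ mice stood 7.76-fold, 6.55-fold and 3.08-fold above the DMSO mean.

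NP065022, whose probe lies 23.8 kb from that of Cyp2b10, varied least of the 3 among the control mice. Intensities of 320, 238 and 303 were measured with DMSO, and of 1151, 1121 and 694 with CBZ. The lowest CBZ value exceeded the highest DMSO value, and CBZ mouse 3 was once more the lowest of its group. Mean log2 levels were 0.70 ± 0.21 (SD, n = 3) and 2.44 ± 0.51 (SD, n = 3), a log2 fold change of 1.75 ± 0.25 (SE), or 3.35-fold with a 95% interval of 2.27 to 4.95. The adjusted p by limma was 0.065, and the increase ranked 17th. The CBZ mice stood 3.86-fold, 4.37-fold and 2.24-fold above the DMSO mean.

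**Figure D1:**
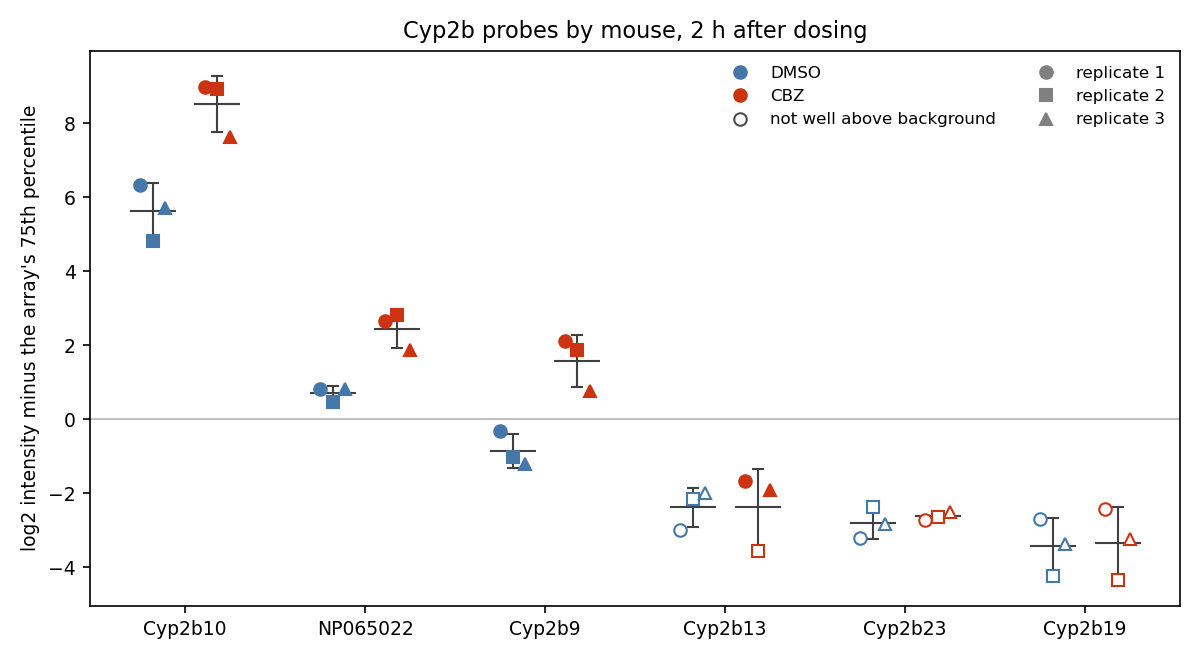
Level of each Cyp2b probe in each mouse, as log2 processed intensity minus the array's 75th percentile (y axis), for the 6 members (x axis). Symbols mark the replicate, open symbols an array where the probe was not well above background, and bars the group mean ± SD (n = 3). Cyp2b10, NP065022 and Cyp2b9 separate by group, and the other 3 members lie below 0 with overlapping groups.

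The other 3 members were at or below the detection limit in these livers and were not tested. Cyp2b13 was well above background in CBZ mice 1 and 3 only, with intensities of 22.7, 38.7 and 43.2 with DMSO and 57.8, 13.3 and 50.9 with CBZ. Those 6 values fell in exactly the order of the arrays' own median intensities, which ran from 27.5 to 45.5, and the part of this in the result was not tested. The groups overlapped and the mean log2 difference was 0.0012. Cyp2b19 was not well above background on any of the 6 arrays, with intensities of 7.70 to 34.4 and a mean log2 difference of 0.098 between overlapping groups. Cyp2b23 was likewise not well above background on any array, with intensities of 19.4 to 33.8 and a mean log2 difference of 0.18. For these 3 genes a change in RNA was not detectable at this signal, which does not show that there was none.

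The 3 measured members varied together from mouse to mouse. Over the 6 arrays the log2 levels correlated at r = 0.978 for Cyp2b10 with Cyp2b9, 0.983 for Cyp2b10 with NP065022 and 0.974 for Cyp2b9 with NP065022. With each group's mean removed, the values were 0.855, 0.888 and 0.804. These are descriptions over 6 arrays that share their scaling, and much of the first set is the difference between the groups. Within the CBZ group mouse 3 was the lowest for all 3 probes, while mouse 1 was highest for Cyp2b10 and Cyp2b9 and mouse 2 for NP065022.

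The size of the change was compared between paralogs mouse by mouse, as the difference of 2 probes' log2 values on the same array. The exact permutation test over mice, two-sided, cannot go below p = 0.1 with 3 mice against 3, and 12 pairs were compared. The log2 change of Cyp2b10 exceeded that of NP065022 by 1.15, with the difference on every CBZ array above every DMSO array (SD 0.57 with DMSO and 0.28 with CBZ, n = 3 each; exact p = 0.1, adjusted 0.15). For Cyp2b9 over NP065022 the excess was 0.68 (SD 0.43 and 0.29, n = 3 each; exact p = 0.1, adjusted 0.15). Cyp2b10 exceeded Cyp2b9 by 0.47, with an SD of that difference of 0.55 with DMSO and 0.11 with CBZ (n = 3 each; exact p = 0.3, adjusted 0.36). With normexp background correction and its offset of 50, Cyp2b10 exceeded Cyp2b9 by 1.19 and Cyp2b9 exceeded NP065022 by 0.20, so the sizes of both differences depend on how the background was treated. Without DMSO mouse 2 the excess of Cyp2b10 over Cyp2b9 was 0.15.

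A further probe in the cluster carries no gene name in the files and was chosen after its values were seen. It lies at chr7:26771212-26771271 on mm9, between the probes of NP065022 and Cyp2b13. The rule took the largest rise among tested probes without a gene name between the probes of Cyp2b10 and Cyp2b19. With a clone name counted as a name, this probe was the only one that met the rule. Its rank, test and likeness to Cyp2b10 below come from those same values and are descriptions only. Capitals mark the 14 bases it shared with a probe for Pbrm1 on the opposite strand, and it shared no run of 12 or more bases with a member's probe.
Unnamed probe: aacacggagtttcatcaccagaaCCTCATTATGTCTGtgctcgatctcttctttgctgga

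Intensities at the unnamed probe were 600, 232 and 310 with DMSO and 4093, 3054 and 1459 with CBZ. The groups did not overlap, and the log2 fold change was 2.89 ± 0.44 (SE), or 7.43-fold, with an adjusted p of 0.066 by limma. This was the 4th largest increase, next after Cyp2b10. Its change differed from that of Cyp2b10 by 0.00098 on the log2 scale, with an SD of that difference of 0.22 with DMSO and 0.098 with CBZ (n = 3 each; exact permutation p = 1). With 3 mice against 3 that test does not show that the changes were equal. The levels correlated at r = 0.996 over the 6 arrays and at 0.975 with group means removed. The RefSeq gene order on GRCm38.p6 places the pseudogenes Cyp2b28-ps and Cyp2b27-ps and the predicted gene Gm51474 between Cyp2b10 and Cyp2b13, and which transcript this probe reads was not tested.

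**Figure D2:**
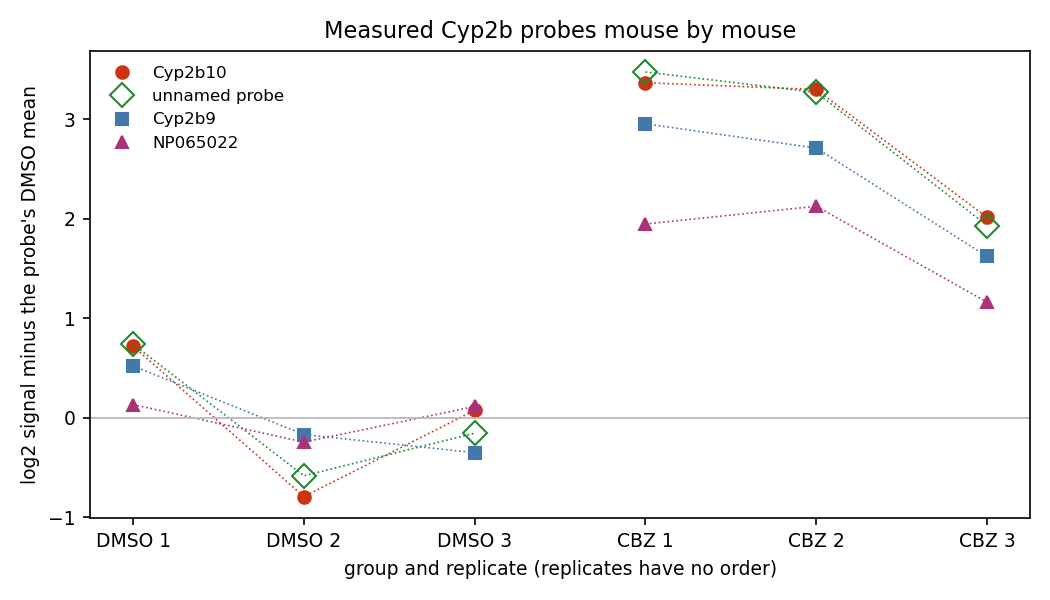
Log2 signal of each measured probe minus its mean over the 3 DMSO mice (y axis), for each mouse (x axis, replicates have no order and dotted lines only join the points of a probe within a group). The unnamed probe overlies Cyp2b10, and all 4 probes are lowest in CBZ mouse 3 among the treated mice.

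The probes of the outermost members, Cyp2b10 and Cyp2b19, lie 846 kb apart. Within 500 kb to either side of them the array had 58 other probes, and 35 of these were tested. The 58 covered 30 named genes as well as transcripts without a gene name. Of the 35, 14 were higher and 21 lower with CBZ, none passed the adjusted threshold, and the median log2 fold change was -0.03. The unnamed probe was the 1 of the 35 that was at least 2-fold higher. Among named genes the smallest p-values belonged to Mia, a secreted cartilage and melanoma protein, at -0.43 ± 0.13 (SE; adjusted p 0.33 by limma), and to Hnrnpul1, an RNA-binding nuclear protein, at 0.30 ± 0.13. Between the outermost member probes 4 other probes were tested. These were the unnamed one, one for the clone name BC026762 at 0.65 ± 0.17 (adjusted p 0.26), and a pair for Cyp2a4, a steroid-hydroxylating P450, at -0.21 ± 0.24 and -0.18 ± 0.20. Other P450 genes nearby gave -0.09 for Cyp2g1, 0.11 for Cyp2a12, -0.12 for Cyp2f2 and -0.02 for Cyp2t4.

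**Figure D3:**
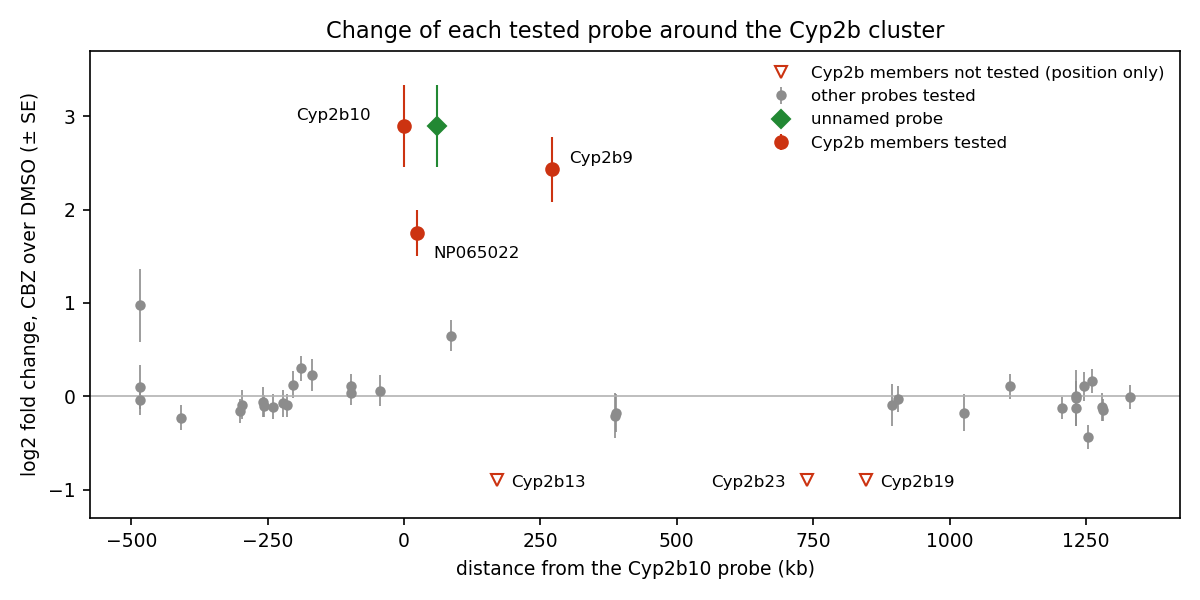
Log2 fold change of each tested probe, CBZ over DMSO with its SE (y axis), against its distance from the Cyp2b10 probe in kb (x axis). Red circles are tested Cyp2b members, the green diamond the unnamed probe, grey circles other probes within 500 kb of the cluster, and open triangles mark only the positions of the 3 members not tested. The 4 highest points are 3 Cyp2b members and the unnamed probe.

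Promoter sequences of 5 members were available from RefSeq on GRCm38.p6, all but NP065022. The 250 bases before the start are shown for the 2 members that had both a symbol and a measured change, with the nuclear receptor half-site AGGTCA in capitals where it occurs.
Cyp2b10, chr7:25897408-25897657, plus strand: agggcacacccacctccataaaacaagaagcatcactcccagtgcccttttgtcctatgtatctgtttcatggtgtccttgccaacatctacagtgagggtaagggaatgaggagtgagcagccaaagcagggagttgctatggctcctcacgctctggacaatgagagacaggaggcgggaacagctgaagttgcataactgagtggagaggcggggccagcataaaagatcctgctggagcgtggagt
Cyp2b9, chr7:26173159-26173408, plus strand: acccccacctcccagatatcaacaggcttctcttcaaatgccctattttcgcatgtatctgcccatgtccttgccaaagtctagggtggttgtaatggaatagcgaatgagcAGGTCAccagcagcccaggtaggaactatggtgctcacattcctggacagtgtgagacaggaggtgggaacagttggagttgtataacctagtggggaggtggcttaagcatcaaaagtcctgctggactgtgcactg

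On either strand, AGGTCA occurred 0 times in the Cyp2b10 window and once in that of Cyp2b9, starting at base 113. Cyp2b13, Cyp2b19 and Cyp2b23 also held 1 match each, and 14.0% of 32817 promoter windows of the same length held at least 1. A direct repeat of that half-site with 4 bases between the copies was in none of the 5 members' windows and in 5 of all windows. Known CAR-responsive elements of Cyp2b10 lie further upstream than this window. Letters in a window are a description, and nothing follows from them about the receptor. In an alignment of the windows, Cyp2b10 and Cyp2b9 were 71.0% identical. Cyp2b9 and Cyp2b13 matched at 248 of 250 bases, differing by T48C and C104T (the Cyp2b9 base first, counted from 1 at the 5′ end of the window), while the Cyp2b9 probe was higher with CBZ and the Cyp2b13 probe was near background.

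The genes that would carry the CAR signal were described from a list of 19 receptors, co-regulators and signalling genes. All 19 were tested, 5 were higher and 14 lower, and none passed the adjusted threshold, with a median log2 fold change of -0.08, beside -0.004 over the 17047 genes tested. Nr1i3 itself was at 0.29 ± 0.15 (SE; adjusted p 0.64 by limma), and Nr1i2 at 0.27 ± 0.16 (adjusted p 0.73). The nuclear receptor coactivators Ncoa2 and Ncoa3 each stood at -0.19.

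P450 enzymes need haem and electrons from a reductase, so 16 genes of haem synthesis, haem breakdown and electron transfer were taken next. Of these 6 were higher and 10 lower, with a median of -0.02 (0.002 when scaled over detected spots, and 0.02 and -0.13 without DMSO mouse 1 and DMSO mouse 3) and none past the adjusted threshold. Alas1, the rate-limiting enzyme of haem synthesis, was at 1.00 ± 0.21 (adjusted p 0.17), and passed the threshold with normexp background correction, at 0.98 (adjusted p 0.020). Its log2 levels were 8.33, 8.07 and 7.49 with DMSO and 8.90, 9.07 and 8.91 with CBZ, so that the groups did not overlap. Por, the P450 reductase, was at -0.02 ± 0.15 (adjusted p 0.99), Pgrmc1, a haem-binding partner of P450s, at -0.17, and the haem synthesis enzymes Cpox and Fech at -0.12 and -0.13.

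Other known or proposed targets of CAR and PXR formed a list of 55 genes, of which 49 were tested. In this list 34 were higher and 15 lower, with a median of 0.11, and 3 rose past the adjusted threshold, beside 8 rises and 1 fall among all 17047 genes. The list was drawn up with earlier results of these data known, so these counts are descriptions only. Gadd45b, a stress-inducible regulator of growth arrest, rose by 2.95 ± 0.20 on the log2 scale (adjusted p 0.0056 by limma), from a mean log2 level of 1.40 with DMSO to 4.35 with CBZ. Myc, a growth-promoting transcription factor, rose by 1.64 ± 0.18 (adjusted p 0.030). Cyp2c55, a P450 of arachidonic acid metabolism, rose by 1.54 ± 0.18 (adjusted p 0.033). Insig2, a sterol-sensing regulator, was at 1.02 ± 0.19 (adjusted p 0.14), and passed with normexp (adjusted p 0.0072) and with an intensity trend and robust eBayes (0.0065). Without CBZ mouse 2 the list's median was 0.04. When arrays were scaled by their median, which moved the median of all probes to -0.11, the same list gave 26 higher and 23 lower with a median of 0.01.

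The Cyp2c and Cyp3a families, also known for induction by drugs, were set beside the Cyp2b genes. In the Cyp2c family 13 genes were tested and 1 was called, Cyp2c55, followed by Cyp2c38 at 0.50 ± 0.13 (adjusted p 0.27). Cyp2c29, a common CAR target, was at 0.23 ± 0.16 (adjusted p 0.79). In the Cyp3a family, whose best-known inducer is PXR, 7 genes were tested, at -0.02 to 0.29, and none was called. Cyp3a11, the main member in liver, was at 0.10 ± 0.12 (adjusted p 0.93). The log2 change of Cyp2b10 exceeded that of Cyp3a11 by 2.79 and that of Cyp2c55 by 1.36 (both exact permutation p = 0.1, the smallest possible, adjusted 0.15). For Cyp2b9 the excess over Cyp3a11 was 2.33 (exact p = 0.1, adjusted 0.15) and over Cyp2c55 0.89 (exact p = 0.2, adjusted 0.27). NP065022 exceeded Cyp3a11 by 1.64 (exact p = 0.1, adjusted 0.15), and its change lay 0.21 from that of Cyp2c55 (exact p = 0.5, adjusted 0.55), within the SDs of 0.32 and 0.34 (n = 3 each).

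Since Cyp2b9 is expressed more in female liver, other genes known for a sex difference in mouse liver were examined. Of 19 female-predominant genes 10 were tested, 9 were higher and 1 lower with CBZ, with a median of 0.31 (0.21 to 0.34 under other scalings) and none past the adjusted threshold. Slc22a26, an organic anion transporter, was at 2.01 ± 0.48 (adjusted p 0.22), while Atp6v0d2, a proton pump subunit, was at 0.45 ± 0.17 and Cyp3a16 at 0.29. Median scaling called 2 of these genes, among them Slc22a26 at 1.91 (adjusted p 2.7e-08 by limma). Limma there estimated 1 variance for all probes, so a single gene's own spread between mice did not enter. The log2 levels of Slc22a26 as reported were -2.11, -1.34 and -2.35 with DMSO and 1.31, -0.53 and -0.55 with CBZ. With the slide row as a covariate Slc22a26 was at 3.25 and the list's median was 0.56, and both rest on CBZ mouse 1 alone. Without DMSO mouse 2 the list's median was 0.19. Of 21 male-predominant genes 16 were tested, 1 was higher and 15 lower, with a median of -0.36 (-0.46 to -0.33 under other scalings) and none past the adjusted threshold. The complement gene C6 was at -0.90 ± 0.19 (adjusted p 0.19), the fatty acid hydroxylases Cyp4a12a and Cyp4a12b at -0.73 ± 0.20 and -0.67 ± 0.19, and Cyp7b1, an oxysterol hydroxylase, at -1.08 ± 0.33. C6 passed with normexp (adjusted p 0.018) and with the intensity trend (0.016), and Cyp7b1 with median scaling and its 1 variance for all probes (0.011). Without DMSO mouse 2 the median of the male-predominant list was -0.24. With the slide row as a covariate that median was -0.60, which again rests on CBZ mouse 1 alone.

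The mean of the female-predominant genes, each as its deviation from its mean over the arrays, was -0.14, -0.26 and -0.40 with DMSO and 0.75, 0.08 and -0.03 with CBZ. The log2 levels of Cyp2b9 in the same CBZ mice were 2.11, 1.86 and 0.77. The mean of the male-predominant genes was 0.24, 0.37 and 0.08 with DMSO and -0.48, -0.04 and -0.17 with CBZ. Of 6 sex chromosome genes 2 were tested, the Y-linked Ddx3y and Eif2s3y. Both were well above background on all 6 arrays, with log2 fold changes of 0.04 and -0.05. Xist and the Y-linked Kdm5d were well above background on none. The Y-linked Uty was so in CBZ mouse 3 only, at a single probe, and Tsix in CBZ mouse 2 only. The part of these sex-biased genes in the Cyp2b9 result was not tested.

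Markers of liver cell types were set beside these results, and none of the lists had a gene past the adjusted threshold. Of 10 hepatocyte markers 5 were higher and 5 lower, with a median of 0.01. Perivenous hepatocytes are where Cyp2b10 is mainly expressed, and of 9 of their markers 1 was higher and 8 lower, with a median of -0.05. Periportal markers split 5 to 5 with a median of -0.01. Kupffer cell markers had a median of 0.12 (8 of 10 higher), sinusoidal endothelial markers 0.02 (6 of 10), stellate cell markers 0.24 (8 of 9), cholangiocyte markers 0.28 (5 of 6) and lymphocyte markers 0.08 (5 of 6). Median scaling turned the medians of the hepatocyte, sinusoidal and lymphocyte lists negative, and quantile scaling and scaling over detected spots that of the periportal list positive. Single mice also moved these medians. The Kupffer median was 0.42 without DMSO mouse 1, whose mean deviation for that list was 0.65 (-0.30 and -0.49 for DMSO mice 2 and 3), and it was -0.001 without DMSO mouse 2, -0.05 without DMSO mouse 3 and 0.06 without CBZ mouse 1. The stellate median was 0.10 without CBZ mouse 2. For cholangiocyte markers it was 0.14, 0.43 and 0.18 without DMSO mouse 1, DMSO mouse 3 and CBZ mouse 1. The lymphocyte median was -0.006 without DMSO mouse 1, 0.12 without DMSO mouse 2, 0.15 without DMSO mouse 3 and 0.03 without CBZ mouse 1. Medians of the hepatocyte, periportal and sinusoidal lists took either sign as single mice were left out, between -0.09 and 0.14, and that of the perivenous list ran from -0.19 to -0.001. The mean deviation of the stellate markers was -0.10 to -0.16 with DMSO and -0.05 to 0.42 with CBZ, with CBZ mouse 2 the highest, and the part of these cells in the Cyp2b results was not tested.

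The pattern over the 6 arrays was compared with that of 11490 named genes. Most like Cyp2b10 were Commd10 (r = 0.998), Tmem53 (0.993), Ddx39a (0.993), Arhgef7 (0.985) and Itgb3 (0.979). Most like Cyp2b9 were Lrrc61 (r = 0.988), Exosc8 (0.984), Tmem53 (0.982), Cyp2c55 (0.980) and Commd10 (0.980). Their log2 fold changes ran from 0.20 for Ddx39a to 1.54 for Cyp2c55, and Cyp2c55 alone of the 8 passed the adjusted threshold. These r values describe 6 arrays of 2 groups that share their scaling.

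Whether the 3 measured members counted as changed turned on the processing, while their direction did not under any of the alternatives run. With the filter set to probes well above background on all 6 arrays, 0.213% of 20213 probes were called and all 3 members were among them. With normexp background correction 0.582% were called, again with all 3. Leaving out any 1 mouse gave 0 members called and log2 fold changes of 2.50 to 3.33 for Cyp2b10, 2.17 to 2.83 for Cyp2b9 and 1.55 to 2.04 for NP065022. The row on the slide also split the CBZ group. Row 1 held all DMSO mice and CBZ mouse 1, and row 2 held CBZ mice 2 and 3. With the row as a covariate the log2 fold changes were 3.37, 2.96 and 1.95, which rest on CBZ mouse 1 alone, and none was called.

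**Figure D4:**
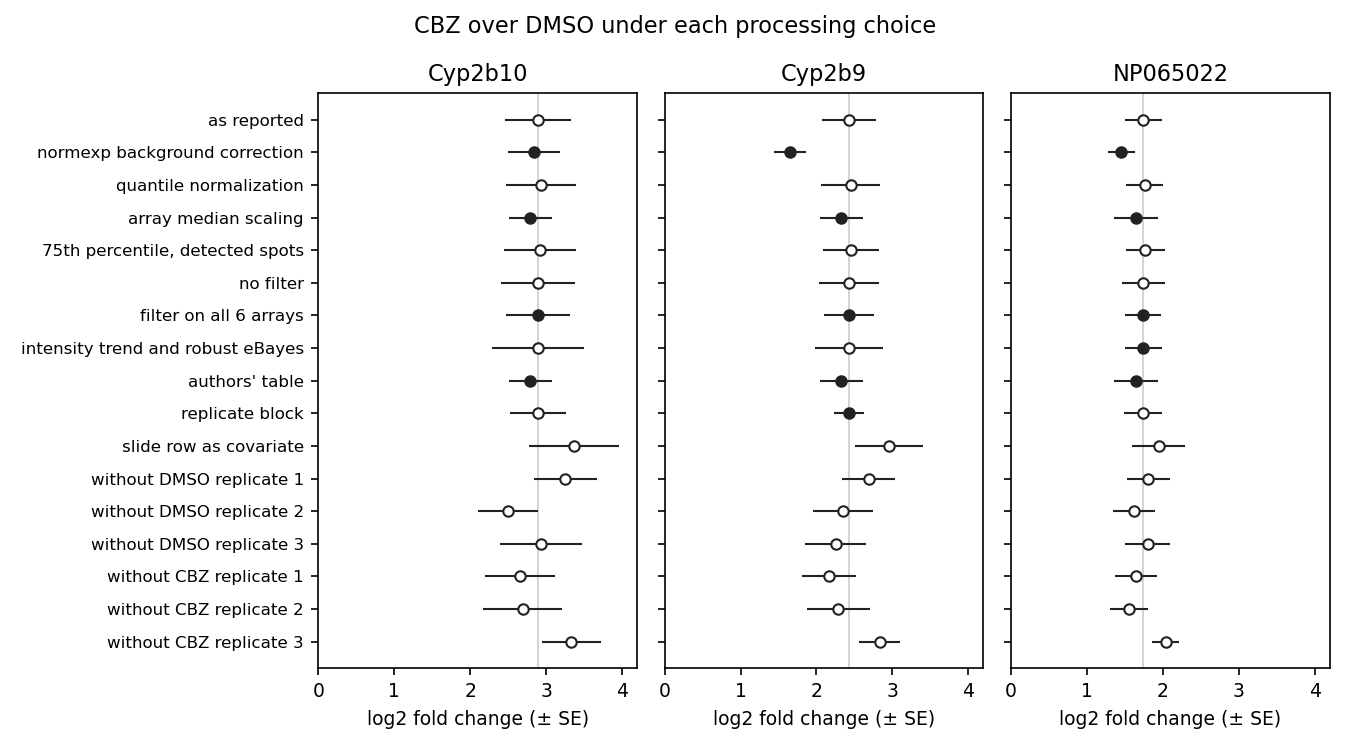
Log2 fold change with its SE (x axis) of the 3 measured members under each processing choice (y axis). Filled circles have an adjusted p under 0.05 by limma, open circles do not, and the grey line is the value as reported. All values lie above 1, from 1.46 for NP065022 to 3.37 for Cyp2b10.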

How the data were processed

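Whole-liver RNA of 6 mice was measured on 1 array each. Per the file headers, the scans were read by the authors with Agilent Feature Extraction 10.7.3.1 (protocol GE1_107_Sep09), and the deposited processed intensity of each spot is background-subtracted on a linear scale. The deposited value table holds a ratio of that intensity to the array's median. Control and outlier-marked spots were left out, spots of a probe were averaged, and log2 intensities were scaled by each array's 75th percentile. Probes detected in every mouse of one group or the other went into limma (version 3.58.1, R 4.3.3, no covariate, two-sided moderated test), with Benjamini-Hochberg adjustment over 22352 probes and a threshold of 0.05, and the fit was tested on simulated data. A gene in a list is its brightest probe. Intervals are 95%, and limma p-values set the difference between the groups against the spread between these mice, moderated over all probes tested. Precision is limited by the number of arrays.

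The members, lists and tests were chosen with earlier results of these data known. All members were named, and per list the genes past the threshold, otherwise up to 4 of smallest p, with Nr1i3, Nr1i2, Por, Alas1, Cyp2c29, Cyp2c55, Cyp3a11 and Gadd45b in any case. A gene that this rule names is not reported here. Likeness is Pearson's r. The 5 genes most like Cyp2b10 and Cyp2b9 were named. Symbols and promoters are from RefSeq, GRCm38.p6. Probe coordinates are mm9. Alternatives covered background, scaling, filter, variance model, the deposited table, blocks and each mouse left out. Paralog differences and list counts under them were added after seeing the data.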

Additional observations from a re-analysis of the deposited data

How the results depend on the processing

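The direction of Cyp2b10, Cyp2b9 and NP065022 was the same under every alternative run, but their call was not. None of the 3 was called as reported. All 3 were at an adjusted p under 0.10, a level whose share of all probes tested was not counted. Other probes also reached that level, since Cyp2b10, Cyp2b9 and NP065022 ranked 39th, 27th and 23rd by limma p. All 3 were called with normexp (log2 fold changes 2.85, 1.65 and 1.46), with array median scaling and with the authors' deposited table (2.79, 2.33 and 1.65 each), and with the filter on all 6 arrays (2.89, 2.43 and 1.75). Under median scaling and in that table limma estimated 1 variance for all probes, with 89408 degrees of freedom in place of 8.62. With an intensity trend and robust eBayes 1 was called, NP065022 at 1.75 (adjusted p 0.015). Replicate numbers did not pair the mice (r of same-numbered deviations -0.24, 0.02 and 0.18). With the replicate block 1 was called, Cyp2b9 at 2.43 (adjusted p 0.047 by limma). Of all 22352 probes tested, 9 were called higher and 1 lower with that block. None was called with quantile scaling (adjusted p 0.10 to 0.15), the 75th percentile over detected spots (0.21 to 0.24), no filter (0.53) or the slide row (0.13 to 0.24). Without each mouse in turn 0 were called, at 2.50 to 3.33 for Cyp2b10, 2.17 to 2.83 for Cyp2b9 and 1.55 to 2.04 for NP065022. Cyp2b10 minus Cyp2b9 was 0.15 without DMSO mouse 2. The 3 calls among other CAR and PXR targets were 0 to 5 under the alternatives, 0 without DMSO mouse 3 or CBZ mouse 2 and 1 without DMSO mouse 1, DMSO mouse 2 or CBZ mouse 3. Over all probes, the 12 higher and 2 lower calls became 76 and 54 with normexp, 60 and 71 with median scaling, 31 and 12 with the filter on all 6 arrays, 83 and 91 with the trend, 5 and 2 with quantile scaling, 6 and 0 over detected spots, 4 and 3 with the slide row, and 0 and 0 without a filter, and 0 to 22 higher calls without 1 mouse. The cause was not tested. Cyp2b13, Cyp2b19 and Cyp2b23 entered only the fit without a filter (adjusted p 0.98 to 1.00), and signal over background limits what they can show.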
